A study of Mus musculus with 29 samples.

Results

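The collagen chain genes were taken as the protein-coding genes whose symbol is Col, a number, the letter a and a second number, and 44 of the 48709 gene identifiers in the count tables met this rule. RNA sequencing of polyA RNA had been done in 29 libraries of 3 experiments, each of which compared anti-miR-99b, a locked nucleic acid inhibitor of the microRNA miR-99b-5p, with a scrambled oligonucleotide (sc-control). In the PFC experiment, the prefrontal cortex of male C57BL/6J mice aged 3 months received either oligonucleotide in lipid nanoparticles, and the tissue was taken 5 days later (n = 3 mice each, 1 library per mouse). In the microglia experiment, primary microglia shaken off mixed glia cultures of postnatal day 1 CD1 pups were treated for 2 days (n = 4 each), and in the co-culture experiment cortical neurons of embryonic day 17.5 CD1 mice, prepared without meninges, received such treated microglia and the whole culture was lysed 48 h later (n = 7 anti-miR-99b, n = 8 sc-control). The mixed glia had been grown in medium supplemented with medium conditioned by L929 cells, a mouse fibroblast line. The microglia shaken off were plated in medium with the same supplement. No group carried a genetic alteration. The sources used here do not say whether culture libraries came from separate preparations, so that p-values measure the spread between libraries, which may be technical. Total counts were 24482309 to 36475236 in the PFC, 21324156 to 35013400 in microglia and 23269839 to 37901110 in co-cultures.

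Collagens are extracellular proteins in which several chains wind into a rope-like helix. Fibrillar collagens (types I, II, III, V, XI, XXIV and XXVII) form the cables of connective tissue, collagen IV forms the sheet of the basement membrane, collagen VI forms beaded filaments, and collagen VII forms anchoring fibrils. Fibril associated collagens sit on the surface of fibrils, collagens XV and XVIII carry the endostatin domain, and a few collagens such as XIII, XVII, XXIII and XXV span the cell membrane. In the brain, fibrillar collagens are made mostly by fibroblasts of the meninges and of large vessels, and the main collagen IV chains by endothelial cells and pericytes of the capillary wall. The 44 genes held 11 fibrillar chains, 6 chains of collagen IV, 6 of collagen VI, 1 of collagen VII, 9 fibril associated chains, 3 chains of the short chain network collagens VIII and X, 2 endostatin collagens, 4 transmembrane collagens and 2 others (Col26a1 and Col28a1).

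The inhibitor was directed against miR-99b-5p, whose mature sequence (RefSeq, GRCm38.p6) is shown with those of 2 relatives of the same seed, since a gene matched by 1 of them is matched by all 3. The capitals mark the seed, bases 2 to 8.
miR-99b-5p, chr17:17830194-17830215, plus strand: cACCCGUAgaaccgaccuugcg
miR-99a-5p, chr16:77598940-77598961, plus strand: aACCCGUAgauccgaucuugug
miR-100-5p, chr9:41531437-41531458, plus strand: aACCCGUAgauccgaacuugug
A 7-base match to this seed was found in the 3′UTR of 0 of the 44 collagen genes, against 232 of 21024 protein-coding genes (1.104%). The collagen 3′UTRs had a median length of 1032 bases, against 960 bases for all genes. The absence of a match says only that these letters were not in the annotated 3′UTRs.

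The cell types that the cortex and the cultures could hold were read from lists of marker genes without a collagen (the plot of summed markers). In the PFC, the 10 fibroblast markers (among them Dcn and Lum) summed to 76.7 to 92 CPM (counts scaled to a common library size), the 10 endothelial markers to 300.3 to 356 CPM and the 10 pericyte and smooth muscle markers to 246 to 292 CPM. Sums of these 3 lists were lower in both cultures, with fibroblast markers at 30.8 to 41.1 CPM in microglia and 26.6 to 30.1 CPM in co-cultures. In microglia, 7 of the 10 fibroblast markers were under 1 CPM, Dcn and Lum included. Postn and Thbs2 made most of the sum, at means of 19.7 and 8.46 CPM in sc-control. The endothelial marker Cldn5, a tight junction protein, had 0 counts in all 8 microglia libraries and a mean of 0.052 CPM in sc-control co-cultures. Astrocyte markers summed to 330 to 391 CPM in microglia and 2512 to 2734 CPM in co-cultures, and the microglia markers to 12330 to 13220 CPM in microglia and 92.7 to 128 CPM in co-cultures. All values are from bulk RNA, in which fewer cells of a type and less RNA per cell cannot be told apart.

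**Figure D1:**
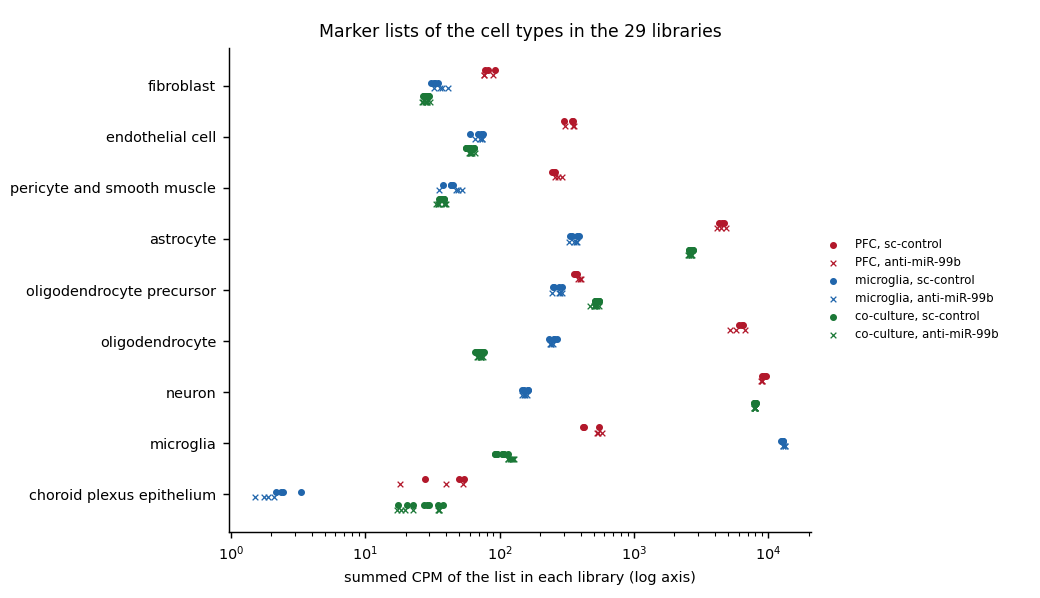
Summed CPM (log axis) of 9 lists of cell type markers in each of the 29 libraries, with circles for sc-control and crosses for anti-miR-99b. Fibroblast, endothelial and pericyte lists sit highest in the PFC, at 76.7 to 356 CPM over the 3 lists, and the microglia list in the microglia cultures.

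Collagen expression was highest in the cortex, where it was led by chains of collagen VI and IV. To compare genes, counts were divided by the exon length of the gene and by the library size (CPM per kb of exon, the level per kb). Over the 44 genes, the level per kb summed to 106 to 114 in the sc-control PFC libraries (median 109), 42.2 to 46.5 in microglia (median 43.5) and 54.0 to 61.7 in co-cultures (median 57.4), so that the 3 experiments did not overlap. The 6 highest genes made 59.3% ± 2.51 of the sum in the PFC (SD, n = 3), 51.7% ± 0.60 in microglia (n = 4) and 54.6% ± 0.75 in co-cultures (n = 8). The order of genes rests on the exon length used. With the length of the longest transcript, 4 of the 6 highest genes in the PFC and 5 of 6 in both cultures remained. Shares of the classes given below rest on the exon length as well, and classes of near shares can change places. Col1a2, a fibrillar chain, has 12426 exon bases in all and 5348 in its longest transcript.

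In the PFC, the highest level was that of Col6a1 (23.5 ± 3.72 per kb, n = 3), a core chain of collagen VI. Next came Col4a2 (15.7 ± 1.39) and Col4a1 (9.65 ± 0.48), the paired chains of the collagen IV found in nearly all basement membranes. Both were apart from each other and from their neighbours in the order. Col16a1, a fibril associated collagen, followed at 5.58 ± 0.10, and Col11a2 (5.33 ± 0.17) and Col5a1 (5.30 ± 0.71), chains of minor fibrils, did not differ beyond their spread. At the low end, Col10a1 of growth plate cartilage had 19 counts in the 6 PFC libraries together and was not tested. Collagen VI held 25.95% and collagen IV 24.4% of the summed level, and fibrillar chains 19.8%.

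Microglia had another order. Col4a5, a collagen IV chain known from the kidney filter, led at 7.35 ± 0.14 per kb (n = 4) and did not overlap with any other gene. Col1a1, the main chain of the type I fibril, was at 3.95 ± 0.91 and overlapped with the transmembrane collagen Col23a1 (3.39 ± 0.15). Col11a1 (2.86 ± 0.19), Col6a1 (2.72 ± 0.31) and Col16a1 (2.43 ± 0.19) followed. Fibrillar chains held 32.8% of the summed level, collagen IV 25.5% and collagen VI 7.52%. In these libraries 15 of the 44 genes were too low to test, none above 14 counts in a library, and Col13a1 had 0 counts in all 8.

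The co-cultures were led by the paired chains Col4a1 and Col4a2 of collagen IV. Col4a1 was at 8.45 ± 0.39 per kb (n = 8) and Col4a2 at 7.90 ± 0.37. With the exon length used, these overlapped with each other but with no other gene. Col6a1 followed at 4.88 ± 0.50, then Col23a1 (3.80 ± 0.16), Col16a1 (3.35 ± 0.19) and Col26a1 (3.09 ± 0.12), a secreted collagen first described in testis and ovary. The place of Col26a1 depends on the length, since it has 8176 exon bases in all and 2781 in its longest transcript. Collagen IV held 34.4% of the summed level, fibril associated chains 17.5%, fibrillar chains 16.7% and transmembrane collagens 11.9%. In 5 genes (Col17a1, Col24a1, Col10a1, Col6a6 and Col4a3) counts were too low to test.

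**Figure D2:**
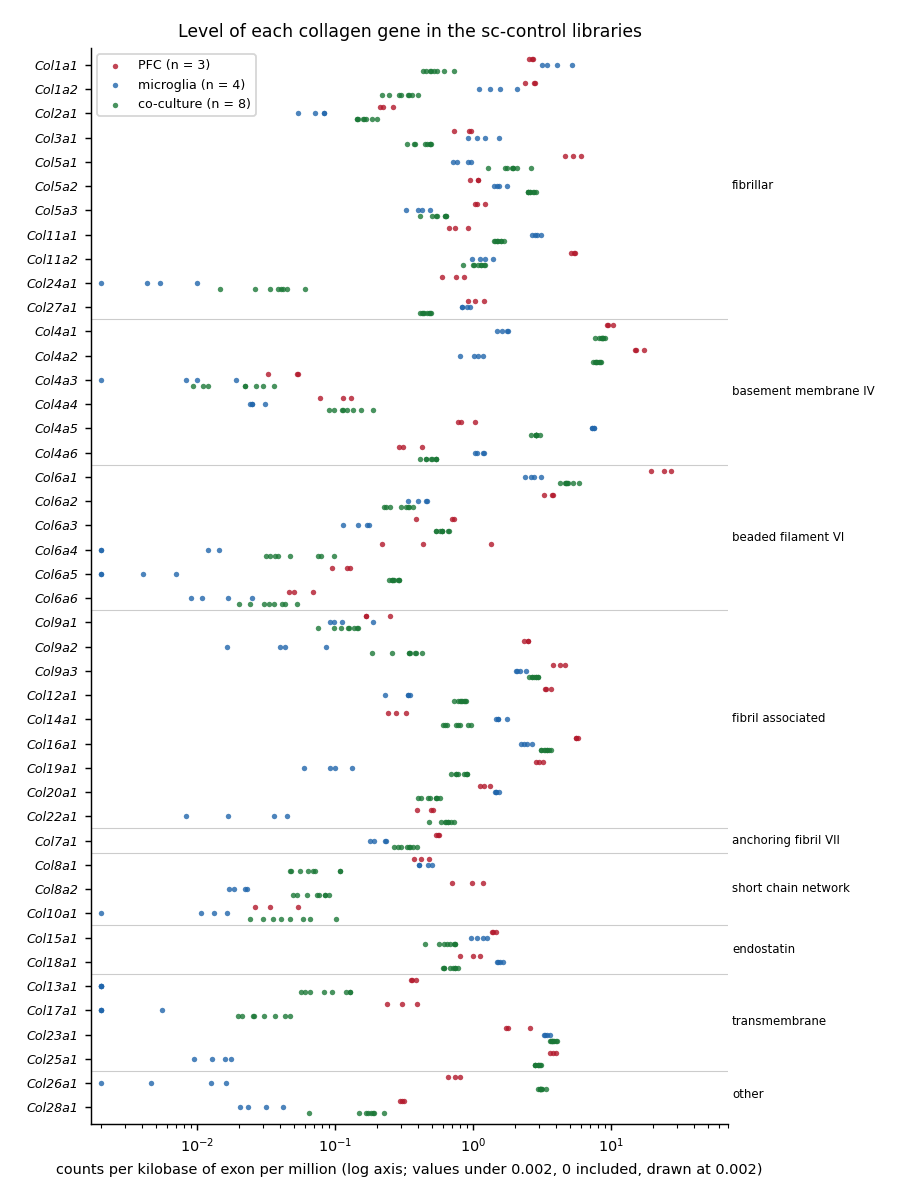
Level of each of the 44 collagen genes in the 15 sc-control libraries, in CPM per kilobase of exon on a log axis, with 1 point per library and the genes grouped by class. Col6a1 and Col4a2 reach the highest levels in the PFC, Col4a5 in microglia and Col4a1 in co-cultures, and many genes of the PFC are near 0 in microglia.

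The sc-control libraries of the 3 experiments were compared next, to place the collagens by source. Strain, age, culture and experiment changed together and cannot be told apart in these contrasts. A gene was called at an adjusted p under 0.05 and a difference of more than 1 on the log2 scale, in 1 edgeR quasi-likelihood fit of the 15 libraries. CPM in these contrasts, the levels per kb and all CPM of cell type markers are on 1 scale shared by the 3 experiments, while CPM of collagen genes in the treatment comparisons are scaled within an experiment, so that a library has different values on each. Against the PFC, microglia had 4 collagen genes higher (9.30% of 43 tested, against 26.4% of all genes) and 27 lower (62.8%, against 37.0% of all genes). The median log2FC over the 43 genes was −2.0, and −0.15 over all genes. All 6 collagen VI chains and 3 of 4 transmembrane collagens were lower.

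The 4 genes higher in microglia were Col4a5, Col4a6, Col14a1 and Col11a1. Col4a5 was at 5.88 CPM in the PFC and 49.4 CPM in microglia (log2FC 3.04, SE 0.07), and Col4a6, its neighbour on the X chromosome, had a log2FC of 1.68. Col14a1 and Col11a1 differed by 2.46 and 1.86. Col25a1, a membrane collagen of neurons, was at 49.1 CPM in the PFC and had 18 counts in the 4 microglia libraries together (log2FC −8.08, SE 0.11). Col13a1, at 1.69 ± 0.072 CPM in the PFC, was at least 56.4-fold lower in microglia, taking a floor of 3 counts over the 4 libraries.

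Co-cultures differed from the PFC in fewer genes. Of the 43, 5 were higher (11.6%, against 14.9% of all genes) and 21 lower (48.8%, against 20.5%), with a median of −0.99. Col26a1 was higher by 2.06 (SE 0.07), from 5.97 to 25.3 CPM, and Col4a5, Col14a1, Col5a2 and Col6a5 by 1.67, 1.43, 1.31 and 1.21. The chains of type I and III collagen were lower, Col1a2 by −3.11 on the log2 scale (32.9 against 3.87 CPM), Col1a1 by −2.31 (17.3 against 3.5 CPM) and Col3a1 by −1.04 (8.59 against 4.24 CPM). Col6a2 (−3.60) and Col6a1 (−2.28) were lower as well. Col4a1 did not pass (−0.22), while Col4a2 just did (−1.02).

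Between the cultures, 21 genes were higher in co-cultures than in microglia (48.8%, against 35.2% of all genes) and 9 were lower (20.9%, against 24.3%). Col26a1 (8.41), Col25a1 (7.68) and Col6a5 (6.21) were among those with the largest log2FC, as was Col13a1, and Col4a2 and Col4a1 were higher by 2.96 and 2.35. The genes higher in microglia were led by Col1a1 (−2.88, 25.9 ± 5.99 against 3.5 CPM), Col8a1 (−2.68) and Col1a2 (−2.28), and held Col3a1, Col4a5, Col4a6, Col14a1, Col18a1 and Col20a1. Fibroblast markers of the same libraries summed to 30.8 to 34.9 CPM in microglia and 26.7 to 29.7 CPM in co-cultures, but single markers went opposite ways. Postn (19.7 against 1.69 CPM) and Thbs2 (8.46 against 2.01 CPM) were higher in microglia, and Dcn (0.568 against 8.16 CPM) and Islr (2.90 against 13.7 CPM) were higher in co-cultures. Col13a1, at 0.423 ± 0.138 CPM, was at least 14.1-fold higher in co-cultures than the floor in microglia.

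Col4a1 and Col4a2 are transcribed away from each other from starts 21 bases apart on chromosome 8 (GRCm38), Col4a1 at 11198423 to 11312826 on the minus strand and Col4a2 at 11312805 to 11449287 on the plus strand. Their exons overlap by 22 bases. Both promoters are shown, since the pair shares 78 bases of the windows and both genes are among the highest in the PFC and co-cultures (RefSeq, GRCm38.p6, 250 bases before to 50 after the start, 5′ to 3′ on the strand of the gene). Capitals mark CCAAT and GGGCGG on either strand.
Col4a1, chr8:11312777-11313076, minus strand: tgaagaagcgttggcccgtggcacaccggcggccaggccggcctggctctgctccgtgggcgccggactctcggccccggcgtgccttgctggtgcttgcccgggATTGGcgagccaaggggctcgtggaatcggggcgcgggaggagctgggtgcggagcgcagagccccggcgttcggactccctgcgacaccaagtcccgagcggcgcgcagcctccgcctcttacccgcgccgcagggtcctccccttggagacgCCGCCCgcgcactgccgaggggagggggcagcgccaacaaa
Col4a2, chr8:11312555-11312854, plus strand: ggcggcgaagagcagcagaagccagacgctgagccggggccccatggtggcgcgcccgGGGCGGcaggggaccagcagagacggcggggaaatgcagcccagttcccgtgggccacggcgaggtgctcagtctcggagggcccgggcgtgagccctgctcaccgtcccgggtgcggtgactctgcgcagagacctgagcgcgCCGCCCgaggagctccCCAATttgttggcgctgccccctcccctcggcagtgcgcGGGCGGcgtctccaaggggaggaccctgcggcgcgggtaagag
Neither window held TATAAA, which is in 13.616% of 32851 promoters of this length and in 5 of the 38 collagen promoters matched. CCAAT was in 13 of the 38 (37.408% of all promoters) and GGGCGG in 23 of the 38 (35.658% of all). A match is a run of letters, and binding was not measured.

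In the PFC, no collagen gene passed the threshold between anti-miR-99b and sc-control (adjusted p under 0.1 and log2FC above 0.2 in size, edgeR quasi-likelihood test). More of them had higher than lower values after the inhibitor. Of 43 genes tested, 29 had a log2FC above 0 (67.4%, against 50.6% of all genes), with a median of 0.15 (0.00 over all genes) and a range of −0.33 to 1.02. At an unadjusted p under 0.05 there were 13 genes higher and 0 lower (5.17% and 2.47% of all genes). The 3 anti-miR-99b libraries lay above the 3 sc-control libraries without overlap in 14 genes (32.6%, against 7.52% of all genes) and below them in 0 (5.81% of all genes). By the threshold, 0.0864% of all genes were called higher and 0.0% lower. All 11 fibrillar chains had a log2FC above 0, with a median of 0.22. DESeq2 called 1 collagen gene, Col7a1, and its number of calls over all genes is not given here.

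Col7a1, the chain of anchoring fibrils (chromosome 9, 108953586 to 108984875, plus strand), had the lowest p. It was at 9.76, 9.44 and 8.25 CPM in anti-miR-99b replicates 1, 2 and 3 and at 6.14, 6.03 and 5.86 CPM in sc-control replicates 2, 3 and 4 (log2FC 0.60, SE 0.11, edgeR adjusted p = 0.180). The groups did not overlap, which in an exact permutation test of 3 against 3 gives the smallest p possible, 0.1. Its adjusted p was 0.0910 without anti-miR-99b replicate 3 and 0.0992 without sc-control replicate 4, under the threshold in both cases. Without anti-miR-99b replicates 1 and 2 in turn the edgeR adjusted p was 0.359 and 0.765. Without sc-control replicates 2 and 3 in turn it was 0.714 and 0.350. Its exons share 36 bases with the microRNA gene Mir711.

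Col6a6, a low chain of collagen VI, was at 0.980, 1.18 and 1.09 CPM with anti-miR-99b and at 0.447, 0.669 and 0.495 CPM with sc-control (log2FC 1.02, SE 0.25, edgeR adjusted p = 0.324). All 3 treated libraries were higher, at a level near 1 CPM. Its neighbour Col6a5 was at 1.43, 1.25 and 1.35 against 0.950, 1.27 and 1.22 CPM, and the groups overlapped.

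Col1a1 was at 22.7, 21.8 and 23.5 CPM against 17.7, 18.8 and 18.6 CPM (log2FC 0.31, SE 0.08, edgeR adjusted p = 0.350). Col11a2 was at 52.1, 49.6 and 43.3 against 39.1, 39.7 and 37.8 CPM (log2FC 0.31, SE 0.08, edgeR adjusted p = 0.365). Col20a1, a fibril associated collagen, was at 8.99, 8.54 and 7.96 against 6.51, 6.06 and 7.28 CPM (log2FC 0.36, SE 0.11, edgeR adjusted p = 0.568). In each of these 3 genes the treated libraries lay above every control library, and each of the 5 genes of lowest p was higher in both sequencing lanes. Col9a3, Col27a1, Col5a3, Col3a1, Col17a1, Col18a1, Col15a1 and Col16a1 were the other genes at an unadjusted p under 0.05.

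Col11a2, given above among the genes of lowest p, was also 1 of the 6 genes with the highest levels in the PFC. The log2FC of the others was −0.03 to 0.19. Col6a1 was at 125, 99.4 and 96.3 CPM with anti-miR-99b and at 112, 124 and 91.2 CPM with sc-control (log2FC −0.03). Col4a1 was at 92, 88.2 and 75 against 80.7, 74.3 and 74.4 CPM (log2FC 0.15), and Col4a2 at 134, 127 and 99.3 against 121, 103 and 106 CPM (log2FC 0.13). These 3 genes overlapped between the groups. Col16a1 was at 49.1, 45.9 and 41.6 against 39.6, 39.3 and 41 CPM (log2FC 0.19), without overlap, and Col5a1 at 54.3, 49.4 and 50.2 against 41.2, 53.8 and 48.2 CPM (log2FC 0.10). Col6a4, singled out after its values were seen, had a wide spread within groups, from 1.98 to 12.3 CPM in sc-control and from 3.64 to 12.3 CPM in anti-miR-99b.

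No marker of the 9 cell type lists passed the edgeR threshold in the PFC. The 10 pericyte and smooth muscle markers all had a log2FC above 0 (median 0.14, 3 at an unadjusted p under 0.05). Their sums of 259.2 to 292.4 against 246.4 to 258.5 CPM did not overlap. Oligodendrocyte precursor markers were above 0 in 8 of 10 genes (median 0.13, 2 at an unadjusted p under 0.05), and their sums of 384 to 401 against 360 to 375 CPM did not overlap. Microglia markers were above 0 in 9 of 10 (median 0.26, 5 at an unadjusted p under 0.05), with overlapping sums of 527 to 574 against 418 to 545 CPM. Endothelial markers were above 0 in 7 of 10 genes (median 0.09), astrocyte markers in 7 of 10 (0.05), and fibroblast markers in 3 of 10 (median −0.03, sums of 76.7 to 88.6 against 78.2 to 92 CPM). Neuron markers were above 0 in 1 of 10 (median −0.07), oligodendrocyte markers in 4 of 10 (−0.16) and choroid plexus markers in 3 of 8 (−0.21). The part of these markers in the collagen values was not tested.

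**Figure D3:**
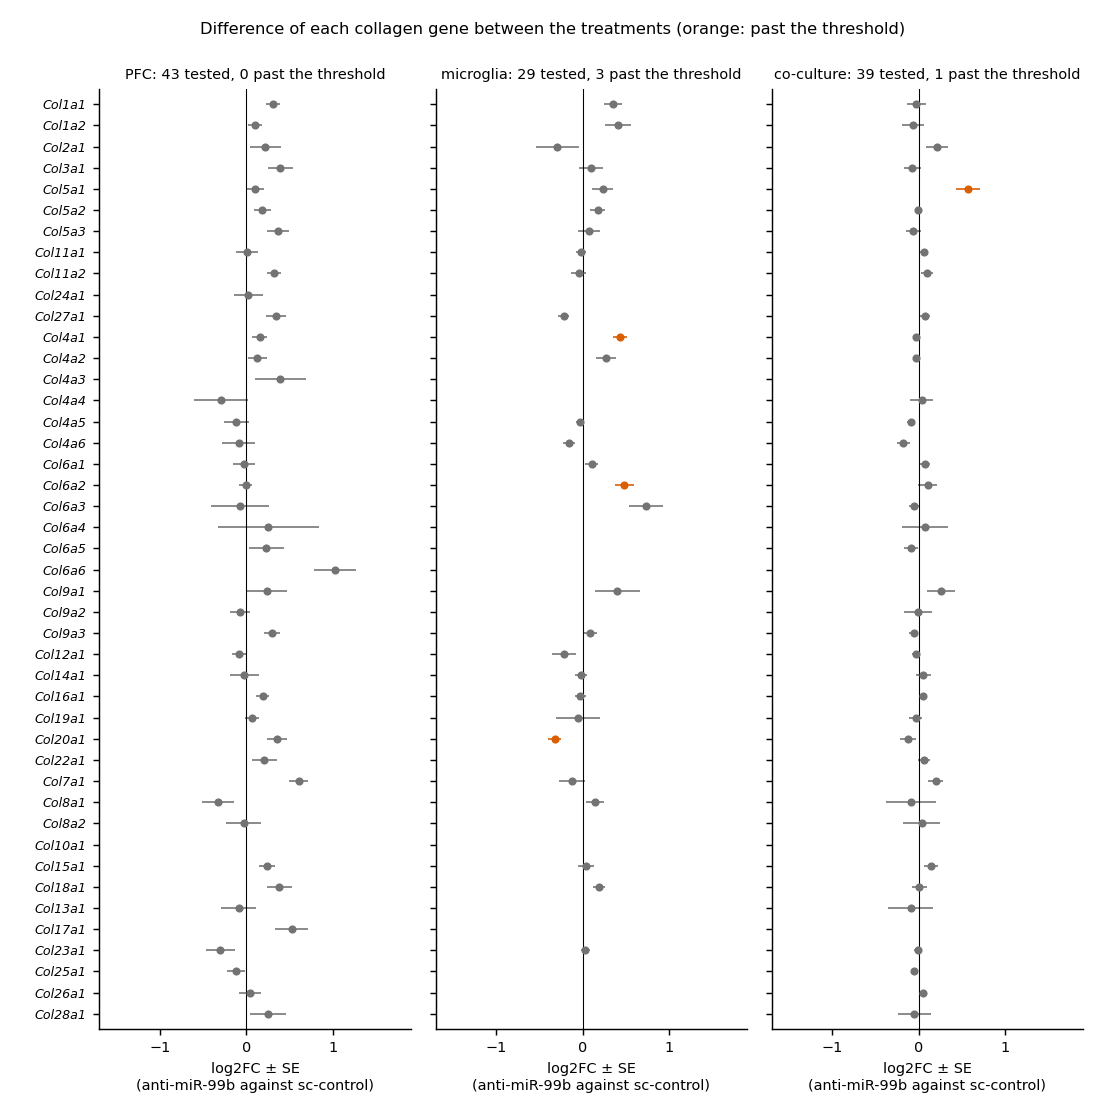
Difference of each collagen gene between anti-miR-99b and sc-control in the 3 experiments (log2FC ± SE of the edgeR fit, with the genes tested and orange for those past the threshold). In the PFC 29 of 43 points are right of 0 and none is orange, in microglia Col4a1, Col6a2 and Col20a1 are orange, and in co-cultures Col5a1 is.

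In microglia, Col4a1 and Col6a2 rose with anti-miR-99b and Col20a1 fell (adjusted p under 0.1 and log2FC above 0.1 in size). That was 2 genes higher and 1 lower of 29 tested, against 0.435% and 0.0535% of all genes. At an unadjusted p under 0.05, 8 collagen genes were higher and 3 lower (3.40% and 3.04% of all genes). The groups of 4 libraries did not overlap in 2 higher genes, Col4a1 and Col6a2 (1.65% of all genes), and in 3 lower ones, Col20a1, Col27a1 and Col4a6 (1.80% of all genes). A log2FC above 0 was seen in 17 of 29 genes (58.6%, against 51.6% of all genes), with a median of 0.08. The number called was 5 without sc-control replicate 2, 1 without anti-miR-99b replicate 1, and 0 without sc-control replicates 4 or 6 or anti-miR-99b replicates 4 or 5.

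Col4a1 was at 13.0, 13.6, 16.2 and 16.8 CPM in anti-miR-99b replicates 1, 3, 4 and 5, and at 12.2, 11.8, 9.85 and 10.6 CPM in sc-control replicates 2, 3, 4 and 6 (log2FC 0.43, SE 0.08, edgeR adjusted p = 0.0238). The exact permutation p was 0.0286, the smallest that 4 against 4 can give. The difference was larger in lane 6 (means of 16.5 against 10.2 CPM) than in lane 5 (13.3 against 12.0 CPM). The call was lost when a library of lane 6 was left out, with an adjusted p of 0.225 without sc-control replicate 4, 0.163 without sc-control replicate 6, 0.11 without anti-miR-99b replicate 4 and 0.193 without anti-miR-99b replicate 5. Its partner Col4a2 was at 5.77, 6.49, 8.47 and 8.28 against 6.60, 7.00, 4.74 and 5.91 CPM (log2FC 0.27, SE 0.12, edgeR adjusted p = 0.723). The Col4a2 groups overlapped, with the 2 treated libraries of lane 6 highest and those of lane 5 within the control range.

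Col6a2, a core chain of collagen VI (chromosome 10, 76595762 to 76623630, minus strand), was at 4.29, 3.61, 4.78 and 4.79 CPM against 2.59, 3.43, 2.96 and 3.36 CPM (log2FC 0.49, SE 0.11, edgeR adjusted p = 0.0783). Every treated library was higher, although the lowest treated and the highest control library differed by little. Without sc-control replicates 4 and 6 in turn its adjusted p was 0.342 and 0.192, and without anti-miR-99b replicates 1, 4 and 5 it was 0.177, 0.391 and 0.416. DESeq2 gave 0.166.

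Col20a1 (chromosome 2, 180986535 to 181018363, plus strand) was at 5.21, 5.58, 5.38 and 5.64 CPM against 6.89, 6.67, 7.12 and 6.61 CPM (log2FC −0.32, SE 0.08, edgeR adjusted p = 0.0785). All treated libraries were below all controls, in both lanes. DESeq2 gave an adjusted p of 0.336, and leaving out any library but sc-control replicate 2 lost the call, with 0.137, 0.337 and 0.201 without sc-control replicates 3, 4 and 6 and 0.225, 0.104, 0.279 and 0.230 without anti-miR-99b replicates 1, 3, 4 and 5. Its exons share 79 bases with BX649560.1 on the same strand.

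Of the other genes, Col6a3, the long chain of collagen VI, was at 2.18, 1.74, 3.23 and 3.70 against 1.6, 1.9, 1.23 and 1.78 CPM (log2FC 0.73, SE 0.20, edgeR adjusted p = 0.191). Its 2 highest libraries were both treated and in lane 6. Col27a1, a fibrillar chain, was at 8.51, 9.23, 8.72 and 8.73 against 9.95, 9.68, 11.0 and 10.3 CPM (log2FC −0.22, SE 0.07, edgeR adjusted p = 0.323), below every control. Col1a1 was at 25.9, 27.1, 32.1 and 34.1 against 20.8, 30.9, 18.5 and 23.2 CPM (log2FC 0.35, SE 0.10, edgeR adjusted p = 0.323), with overlap. Col4a5, the highest collagen of microglia, was at 43.5 ± 2.23 against 44.5 ± 1.08 CPM (SD, n = 4 each), and its neighbour Col4a6 at 7.12, 7.20, 7.37 and 7.01 against 7.50, 7.63, 8.48 and 8.28 CPM (log2FC −0.16, edgeR adjusted p = 0.741). Means of Col11a1 (32.4 and 32.8 CPM), Col23a1 (17.9 and 17.5 CPM), Col16a1 (14.5 and 14.7 CPM) and Col6a1 (11.6 and 10.7 CPM) differed by less than 1 CPM between the groups.

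In these libraries the fibroblast markers summed to 32.6 to 41.1 CPM with anti-miR-99b and 30.8 to 34.9 CPM with sc-control. The pericyte and smooth muscle markers, mostly Acta2 and Tagln, summed to 35.2 to 52.5 against 37.9 to 44.7 CPM. A log2FC above 0 was seen in 4 of 5 fibroblast markers tested (median 0.16, 1 at an unadjusted p under 0.05). The same held for 4 of 4 pericyte and smooth muscle markers (median 0.09) and 3 of 4 endothelial markers (median 0.08). Endothelial markers summed to 65.9 to 74.4 against 59.8 to 75.1 CPM, of which Flt1 made a mean of 64.7 CPM in sc-control. Oligodendrocyte markers were above 0 in 1 of 8 genes tested (median log2FC −0.16, 4 at an unadjusted p under 0.05), with sums of 236 to 249 against 234 to 265 CPM, and astrocyte markers in 1 of 10 (median −0.04), with sums of 330 to 378 against 336 to 391 CPM. Neuron markers were above 0 in 2 of 10 (−0.06), and microglia markers in 7 of 10 (0.01). Whether these cells took part in the collagen differences was not tested.

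In co-cultures, Col5a1 was the single collagen gene past the threshold (adjusted p under 0.05 and log2FC above 0.1 in size), and it was higher with anti-miR-99b. The 39 genes tested thus held 1 call higher and 0 lower, against 0.846% and 0.556% of all genes. At an unadjusted p under 0.05, 2 genes were higher (Col5a1 and Col7a1) and 3 lower (Col4a6, Col4a5 and Col25a1), against 6.40% and 6.81% of all genes. In none of the 39 genes were the groups apart (0.303% of all genes were apart and higher, 0.278% apart and lower). A log2FC above 0 was found in 18 of 39 genes (46.2%, against 51.6% of all genes), with a median of −0.01. DESeq2 called 1 collagen gene, Col5a1, and its number of calls over all genes is not given here.

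Col5a1, a chain that governs how thick collagen fibrils grow (chromosome 2, 27886425 to 28039514, plus strand), had a lowest, median and highest value of 17.5, 24.9 and 36.5 CPM in the 7 anti-miR-99b libraries and of 11.3, 16.9 and 23 CPM in the 8 sc-control libraries. Means were 25.2 ± 7.20 and 16.7 ± 3.30 CPM (log2FC 0.57, SE 0.14, edgeR adjusted p = 0.0317, exact permutation p = 0.00746). Treated replicates 7, 12, 10 and 11, at 36.5, 32.1, 27.1 and 24.9 CPM, lay above all controls, and the other 3 lay within the control range. Lane means of anti-miR-99b against sc-control were 18.4 against 16.7 CPM in lane 4, 19.05 against 15.1 in lane 5, 36.5 against 16.7 in lane 6 and 28.1 against 19.2 in lane 7. The 4 highest treated libraries were those of lanes 6 and 7. The adjusted p was over 0.05 without anti-miR-99b replicates 10 (0.0692) or 11 (0.0606), or without sc-control replicates 1 (0.0526), 4 (0.0572), 5 (0.0601), 8 (0.0643) or 12 (0.0724). Col5a1 shares 99 and 113 exon bases with 2810430I11Rik and Gm13372 on the other strand, and the strand setting of the counting is not given in the sources used here.

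The other low p-values in co-cultures came from small differences. Col4a6 had a lowest, median and highest value of 3.11, 3.69 and 3.87 CPM against 3.38, 4.08 and 4.46 CPM (log2FC −0.18, edgeR adjusted p = 0.287). Its partner chain Col4a5 was at 16.9, 18.6 and 19.9 against 18.4, 19.7 and 21.0 CPM (log2FC −0.09, edgeR adjusted p = 0.290). In both the range of the treated libraries was shifted down and overlapped. Col7a1 was at 3.23, 3.82 and 4.81 against 2.83, 3.60 and 4.13 CPM (log2FC 0.20, edgeR adjusted p = 0.352), and Col25a1 at 36.3, 37.3 and 39.1 against 37.5, 39.3 and 41.2 CPM (log2FC −0.06, edgeR adjusted p = 0.372). The highest genes, Col4a1 (63.9 ± 3.73 against 65.3 ± 3.13 CPM) and Col4a2 (53.0 ± 4.21 against 54.1 ± 2.61 CPM), overlapped widely, as did Col6a1, Col23a1, Col16a1 and Col26a1 with means of 22.1 to 27 CPM in both groups.

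Microglia markers were higher in the same treated co-cultures, with sums of 115 to 128 against 92.7 to 116 CPM, and 5 of the 10 were called (C1qa, Csf1r, Cx3cr1, Trem2 and Tyrobp, log2FC 0.34 to 0.70). Fibroblast markers summed to 26.6 to 30.1 against 26.7 to 29.7 CPM. Endothelial markers summed to 58.9 to 66.0 against 55.8 to 64.9 CPM, of which Slco1c1 made 56.3 CPM in sc-control. In those sc-control libraries 8 of the 10 endothelial markers were under 1 CPM. Pericyte and smooth muscle markers summed to 33.5 to 39.8 against 35.6 to 38.6 CPM. In sc-control these were mostly Notch3 (21.8 CPM) and Pdgfrb (9.11 CPM), with 6 of the 10 under 1 CPM. The relation of any list to Col5a1 was not tested.

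**Figure D4:**
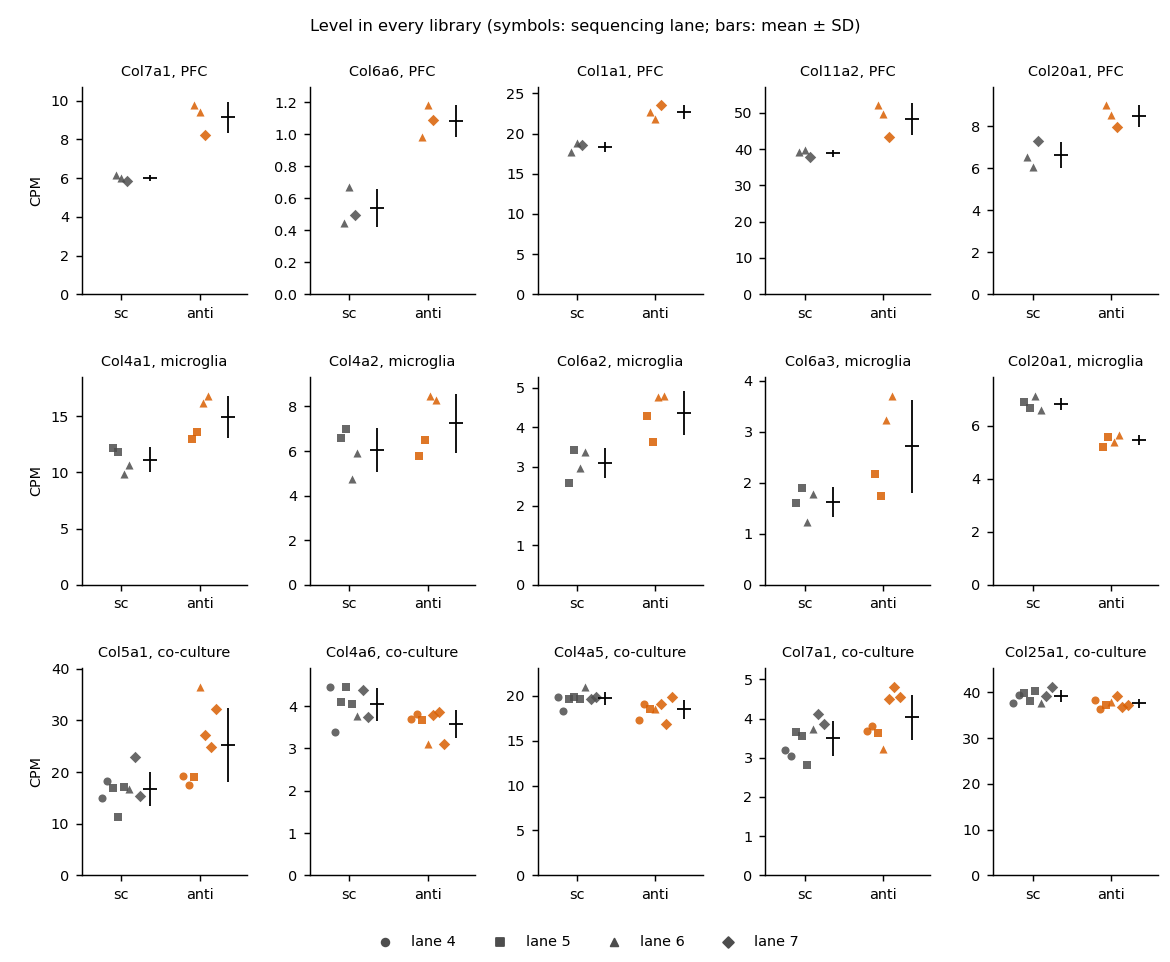
CPM (axis from 0) of 15 genes in every library, with symbols for the sequencing lane and bars for mean ± SD, sc-control in grey and anti-miR-99b in orange. The PFC genes and microglial Col4a1, Col6a2 and Col20a1 do not overlap between the groups, and Col5a1 of co-cultures is highest in treated libraries of lanes 6 and 7.

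To ask whether the effect of anti-miR-99b differed between the experiments, the difference of log2FC was tested in 1 fit of the 29 libraries (edgeR, adjusted p under 0.05 over 18963 genes). The 3 contrasts share libraries, so that they are not independent of each other. Of the 43 collagen genes in this test, 2 differed between microglia and PFC, 1 between co-culture and PFC and 1 between co-culture and microglia, of 89, 150 and 16 genes in all. Col20a1 had a log2FC of 0.36 in the PFC and −0.32 in microglia (difference −0.66, SE 0.13, adjusted p = 0.00813), and Col27a1 0.34 and −0.22 (difference −0.54, SE 0.11, adjusted p = 0.0134). Both were higher in every treated PFC library and lower in every treated microglia library. Col9a3, a fibril associated chain, differed between the PFC (0.30) and co-culture (−0.06) by −0.36 (SE 0.09, adjusted p = 0.0399), and its exons share 234 bases with Tcfl5 on the other strand. Col4a1 differed between microglia (0.43) and co-culture (−0.03) by −0.48 (SE 0.09, adjusted p = 0.0171). For Col5a1 the difference between co-culture and PFC, 0.46, did not pass (adjusted p = 0.297).

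Genes that make, cut, bind or break down collagen were read from 5 lists of 63 genes in all. In the edgeR tests none passed the threshold in any of the 3 experiments, of 59 tested in the PFC, 55 in microglia and 56 in co-cultures. At an unadjusted p under 0.05 there were 7 higher and 0 lower in the PFC, 4 higher and 1 lower in microglia, and 7 higher and 6 lower in co-cultures. Over all genes, 5.17% and 2.47%, 3.40% and 3.04%, and 6.40% and 6.81% were higher and lower at this p in the 3 experiments, and 50.6%, 51.6% and 51.6% had a log2FC above 0. The laminins, nidogens and other basement membrane partners of collagen IV were above 0 in 11 of 14 genes in the PFC (median log2FC 0.17), in 7 of 12 in microglia (0.05) and in 2 of 13 in co-cultures (−0.04). Collagen receptors, the integrins and discoidin domain receptors among them, were above 0 in 7 of 8, 3 of 7 and 3 of 8 genes. The chaperones and hydroxylases that fold and modify the chains were above 0 in 11, 12 and 13 of 16 genes, with medians of 0.04, 0.03 and 0.05. Procollagen cleavage and crosslinking enzymes were above 0 in 6 of 12, 5 of 10 and 6 of 12, and turnover genes such as the collagenases in 7 of 9, 8 of 10 and 2 of 7.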

How the data were processed

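The authors deposited raw read counts per gene for 3 experiments, made from 50 base single reads; their processing notes name bcl2fastq 2.20.2, FastQC 0.11.5, STAR 2.5.2b, featureCounts 1.5.1 and mm10. The annotation release and strand setting are not given in the sources used here. Symbols and exon lengths came from GENCODE M21 (GRCm38) and matched 48349 of 48709 identifiers. In each experiment genes were filtered with filterByExpr, scaled by TMM and tested with edgeR 4.0.16 (quasi-likelihood, R 4.3.3, Benjamini-Hochberg over all genes). Thresholds were an adjusted p of 0.1 and log2FC of 0.2 (PFC), 0.1 and 0.1 (microglia) and 0.05 and 0.1 (co-culture). Exact permutation tests were two-sided. Every column had a sample (0 without), and no library was a copy of another (lowest chi-square per degree of freedom 1.44). No interval is given for single libraries, and floors cover counting error only.

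The collagen genes and all lists were chosen with earlier results of these data known. Values per library are given for genes past a threshold, the 5 of lowest p and the 6 of highest level in each experiment, and genes within 50 kb of one of these. Alternatives were DESeq2 1.42.0, RLE scaling, no filter, at least 10 counts in every library, RUVs, lane and replicate blocks, and leaving out each library. The scripts were tested on simulated counts. The result of 1 marker gene is not reported here.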

Additional observations from a re-analysis of the deposited data

Results flagged for a closer look

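Among 48 groups of 4 or more libraries examined for a library apart from the rest, Col26a1 in sc-control replicate 8 of the co-cultures stood out at 28.3 CPM, against 24.8 to 26.3 CPM in the other 7. Chance gives such a gap in about 5% of groups.

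The difference between microglia and PFC in the response of Col20a1 was −0.66 and that of Col27a1 −0.54 on the log2 scale (edgeR adjusted p of 0.00813 and 0.0134). For Col9a3 the response in co-culture minus that in the PFC was −0.36 (adjusted p = 0.0399), and for Col4a1 the response in co-culture minus that in microglia was −0.48 (adjusted p = 0.0171). With no filter on low counts, the co-culture against PFC difference past the threshold was that of Col5a1 instead of Col9a3, and Col6a2 joined those between microglia and PFC.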

How the results depend on the processing

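In the PFC, where no collagen gene was called, DESeq2 and a lane block each called 1 (Col7a1), no filter on low counts 3, RUVs 4, and leaving out 1 library 0 to 1. In microglia, where 3 were called, DESeq2 called 1 (Col4a1), no filter 6, RUVs and the lane block 4 each, an adjusted p under 0.05 1, and leaving out 1 library 0 to 5. In co-cultures each setting called 1 (Col5a1), with 0 to 1 when a library was left out. The count of genes above 0 ranged from 28 to 33 in the PFC and 14 to 21 in co-cultures, and in microglia from 16 to 19, with 26 of 43 where no filter was used; these counts were made after seeing the data. The sc-control contrasts stayed within 1.5 times their counts. Values under a setting were also followed for the 5 genes of lowest p in each experiment. Of these values 205 kept their side of the threshold, 27 lost it and 18 gained it, and none turned in direction. Genes picked for a low p in these same data seldom turn, so that nothing is drawn from the last count. The other named genes were not followed in this way. The causes of the changed counts were not tested. The number of all genes called under each setting is not given here, so that the collagen counts cannot be set against it.

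Replicate numbers did not pair the libraries: correlations of same-numbered deviations were 0.0476 and −0.285 in the PFC, −0.0505 and −0.0381 in microglia, and −0.0145 to 0.0469 in co-cultures. With the replicate number as a block, only libraries whose number occurred in both groups were fitted. These were replicates 2 and 3 in the PFC, 3 and 4 in microglia, and 2, 5, 11 and 12 in co-cultures. In these smaller fits 8 collagen genes were called in the PFC, 1 in microglia (Col4a1) and 1 in co-cultures (Col5a1). The number of all genes called there is not given here, so that the 8 cannot be set against it or against the full result.

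With 3 libraries a group, the exact test cannot go under 0.1 in the PFC. Genes with few counts, such as Col6a6, rest on less precise values than Col4a1, and in microglia 15 of 44 genes were too low to test.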
